A study of Mus musculus with 2 samples.

Results

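Id1, Id2, Id3 and Id4, the 4 genes of the inhibitor of DNA binding family, were examined for binding of hepatic leukemia factor (HLF) in mouse blood progenitors. Peaks of the deposited FLAG-HLF list were given to an Id gene when their centre, taken as the start of the interval plus 200 bases, lay inside the gene or within 100 kb of either of its ends. This rule took 3 of the 3153 peaks, and all 3 belonged to Id1. Id2, Id3 and Id4 had 0 peaks each. The family was chosen by the positions of these peaks, above all the grouping at Id1, so the counts at the Id genes are a description and carry no test.

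The peaks came from chromatin immunoprecipitation with an anti-FLAG antibody followed by sequencing. Wild-type LSK cells, the lineage-negative, Sca-1 and c-Kit positive gate of mouse marrow that holds stem and multipotent progenitor cells, received a pMX retrovirus. In the FLAG-HLF arm the virus was pMX-3xFLAG-Hlf/Hlf-IRES-GFP, and in the control arm it was pMX-GFP. In both arms 80000 cells were infected and kept for 5 days in OP9 medium with 50 ng/ml SCF and 5 ng/ml IL-3, together with IL-7 and Flt3L, both at 10 ng/ml. There was 1 library per arm. The positions are therefore those of a virally supplied, tagged HLF in cultured cells, with no replicate check, and a peak list has no expression values against which the cell type could be checked. Only the FLAG-HLF list was analysed here. The GFP arm was not analysed, so its background at the Id genes is not known. The list holds chromosome, start and end without heights or significance, so the read depth is unknown and a gene with 0 peaks is one without a listed peak, not one shown to be unbound.

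Id proteins carry a helix-loop-helix domain but lack the basic region that touches DNA. They pair with E proteins, the broadly expressed bHLH factors encoded by Tcf3, Tcf4 and Tcf12, and keep them from binding E boxes (CANNTG, where N is any base). In blood formation E proteins drive lymphoid programmes, in particular of B and T cells, and Id proteins hold them back. Id1 is a classical target of BMP signalling through SMAD factors, Id2 is needed for natural killer and other innate lymphoid cells, Id3 acts in lymphocyte development, and Id4 is best known from the nervous system. HLF belongs to the PAR bZIP factors, which bind the palindrome TTACGTAA and variants of it, a site related to that of C/EBP factors. An enhancer downstream of mouse Id1 that is bound by C/EBP proteins has been described in pro-B cells, and whether any of the 3 peaks covers it was not tested.

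The promoters of Id2, Id3 and Id4, none of which met a peak, are shown for comparison with the sites that PAR bZIP factors bind. Each window runs from 250 bases before the start of the gene to 50 bases after it, on the gene's own strand, and comes from RefSeq (GRCm38.p6). Capitals mark E boxes (CANNTG), CCAAT boxes (CCAAT) and GC boxes (GGGCGG), searched on both strands. Id1 has no entry in the promoter table used.
Id2 (chr12:25096043-25096342, minus strand): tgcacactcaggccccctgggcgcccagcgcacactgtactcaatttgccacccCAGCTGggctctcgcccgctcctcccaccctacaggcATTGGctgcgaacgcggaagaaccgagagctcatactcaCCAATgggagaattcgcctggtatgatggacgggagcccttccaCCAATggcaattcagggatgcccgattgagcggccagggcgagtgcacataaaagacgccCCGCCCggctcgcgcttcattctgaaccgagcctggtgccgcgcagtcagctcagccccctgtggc
Id3 (chr4:136143572-136143871, plus strand): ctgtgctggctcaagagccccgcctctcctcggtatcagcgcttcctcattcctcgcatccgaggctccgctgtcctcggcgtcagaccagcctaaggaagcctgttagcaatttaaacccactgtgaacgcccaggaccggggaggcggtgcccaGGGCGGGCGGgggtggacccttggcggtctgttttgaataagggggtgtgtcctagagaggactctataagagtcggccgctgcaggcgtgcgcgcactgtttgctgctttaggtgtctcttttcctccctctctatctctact
Id4 (chr13:48260866-48261165, plus strand): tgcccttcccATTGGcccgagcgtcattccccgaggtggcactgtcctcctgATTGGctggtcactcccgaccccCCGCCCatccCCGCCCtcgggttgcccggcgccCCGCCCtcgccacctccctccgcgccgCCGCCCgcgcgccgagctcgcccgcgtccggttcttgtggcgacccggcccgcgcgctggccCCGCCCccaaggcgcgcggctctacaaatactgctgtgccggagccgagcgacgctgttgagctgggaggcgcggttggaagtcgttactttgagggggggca

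None of these 3 windows held TTACGTAA, TTACATAA or the looser forms TTACNNAA and TTGCNNAA, each searched on both strands. The first 2 motifs are special cases of TTACNNAA. Of the 177 promoter windows of coding genes that overlapped a FLAG-HLF peak, 31.6% (56 windows) held TTACNNAA, 29.4% (52 windows) TTGCNNAA, 6.21% (11 windows) TTACATAA and 0.565% (1 window) TTACGTAA. Across all 21263 windows of 17492 coding genes the shares were 8.26% for TTACNNAA, 10.2% for TTGCNNAA, 0.894% for TTACATAA and 0.136% for TTACGTAA. These shares describe the 1 list and were not tested. At least 1 of the looser forms was in 48.6% of the windows under a peak (86 windows) and in 17.1% of all windows, so most promoters without a peak lack them. It says only that these letters are not in these 300 bases. The Id windows were rich in G and C, with 63.3% in Id2, 60.0% in Id3 and 73.3% in Id4, against a median of 56.3% over all windows, and the part of base composition in the motif counts was not tested.

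Other elements differed between the 3 promoters. Id2 had 1 E box, CAGCTG at bases 55 to 60 of the window, and Id3 and Id4 had none, while 69.0% of all windows held at least 1. CCAAT boxes numbered 3 in Id2, 0 in Id3 and 2 in Id4 (38.2% of all windows held 1 or more). GC boxes numbered 1 in Id2, 2 overlapping ones in Id3 and 5 in Id4 (46.2% of all windows). GGCGCC, a sequence found in BMP-responsive SMAD sites, occurred once in Id2, at bases 20 to 25, and once in Id4, at bases 103 to 108, and was not found in Id3 (15.3% of all windows). The cyclic AMP response element TGACGTCA was in none of the 3 (2.23% of all windows), but its core TGACG occurred once each in Id3 and Id4 (23.6%). Likewise AGATAA, bound by factors of the GATA family, was in none (9.65%). GTCT, the short SMAD motif, numbered 1 in Id2, 3 in Id3 and 0 in Id4 (86.8%). CACCC boxes numbered 2 in Id2, 2 in Id3 and 0 in Id4 (59.5%). These matches are letters in a window and not measured sites.

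Id1 (chromosome 2, 152736251 to 152737410, mm10) is the shortest of the 4 genes at 1.16 kb. Its lowest peak (chromosome 2, 152736061 to 152736460) was centred 0.009 kb inside the lower end of the gene, the end with the smaller coordinate. Of the 400 bases of this peak, 190 lay before the gene and 210 in it. The middle peak (152739398 to 152739797) was centred 2.187 kb beyond the upper end. The highest peak (152741605 to 152742004) was centred 4.394 kb beyond that end. One peak thus spanned a gene end and the other 2 lay outside the gene on its opposite side, at intervals of 3.337 and 2.207 kb between centres. The gene table gives no strand for Id1, so the lower end was not assigned as start or stop.

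**Figure D1:**
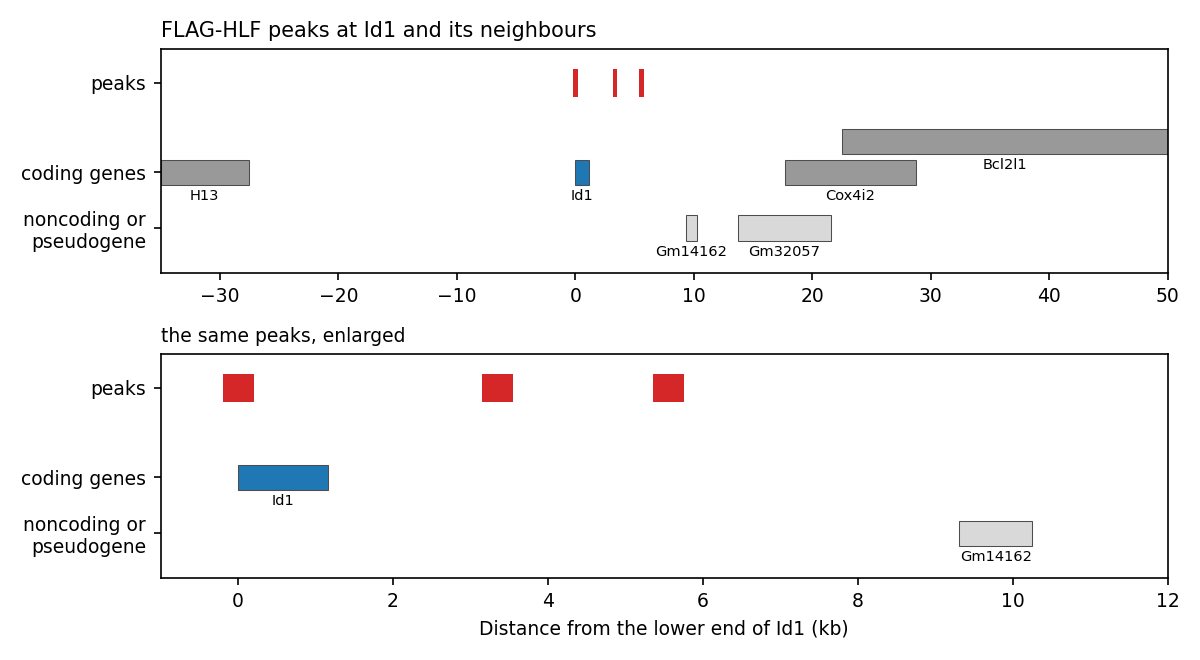
Positions of the 3 FLAG-HLF peaks (red, each 400 bases wide) along the distance from the lower end of Id1 in kb, with coding genes in grey and Id1 in blue, and noncoding genes and pseudogenes in light grey below. One peak spans the lower end of Id1 and the other 2 lie 2.187 and 4.394 kb beyond its upper end, before the pseudogene Gm14162; Bcl2l1 is drawn one step higher because it overlaps Cox4i2.

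The neighbours of Id1 lay farther from the peaks than Id1 itself, apart from 1 pseudogene. No other coding gene held any of the 3 centres. Cox4i2, which encodes a subunit isoform of cytochrome c oxidase, lay 12.1 to 17.7 kb above the centres. Bcl2l1, which encodes the anti-apoptotic protein BCL-XL, lay 16.9 to 22.5 kb above them. H13, a signal peptide peptidase gene, lay 27.6 to 33.1 kb below, and Mcts2, within H13, 48.3 to 53.9 kb below. By the 100 kb rule the same 3 peaks are therefore also counted for these 4 genes, and distance alone does not say which gene a peak acts on. The highest peak lay 4.394 kb from Id1 but 3.753 kb from the pseudogene Gm14162, its nearest gene of any type.

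The surrounding chromosome was otherwise empty of peaks out to several times the 100 kb limit. The next listed peak below Id1 was 392.7 kb away, inside Trib3, a pseudokinase gene, 0.501 kb from its end. The next one above was 433.2 kb away, inside Tm9sf4. Counts for Id1 were accordingly 1 peak inside or within 2 kb, 3 within 5 kb and still 3 within 200 kb.

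Id2 (chromosome 12, 25093799 to 25096092), 2.294 kb long, lay farthest from any peak. Its nearest peak was 1364 kb above it (26460110 to 26460509), 3.857 kb from Rsad2, an interferon-induced antiviral gene. The nearest peak below was 3723 kb away, inside Adam17, which encodes a sheddase. Id2 thus sat in a stretch of 5.09 Mb without a listed peak, where the median spacing of neighbouring peaks was 268 kb. Of the 21631 coding genes on chromosomes with peaks, 10.8% were as far from their nearest peak or farther. Its flanking coding genes, Kidins220 at 30.6 kb below and Rnf144a at 1211 kb above, had 0 and 2 peaks within 100 kb.

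Id3 (chromosome 4, 136143822 to 136145392), 1.571 kb long, was the member nearest to the limit among those with 0 peaks. Its closest peak lay 245.3 kb below (135898337 to 135898736), inside Cnr2, the gene of cannabinoid receptor 2, 3.347 kb from the end of that gene. The closest one above lay 761.9 kb away, 8.435 kb from C1qa, which encodes a complement subunit. Of the coding genes, 42.7% were as far from a peak or farther. Both flanking coding genes, Rpl11 at 90.4 kb below and E2f2 at 26.9 kb above, had 0 peaks within 100 kb as well.

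Id4 (chromosome 13, 48261116 to 48266028), at 4.913 kb the longest of the 4, had its nearest peak 986.3 kb above (49252101 to 49252500), 3.594 kb from Susd3. The nearest below was 1690 kb away, inside Cap2. Of the coding genes, 15.7% were as far or farther. Its flanking coding genes were themselves remote, Rnf144b at 1013 kb below and Zfp169 at 214.7 kb above, and both had 0 peaks within 100 kb.

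**Figure D2:**
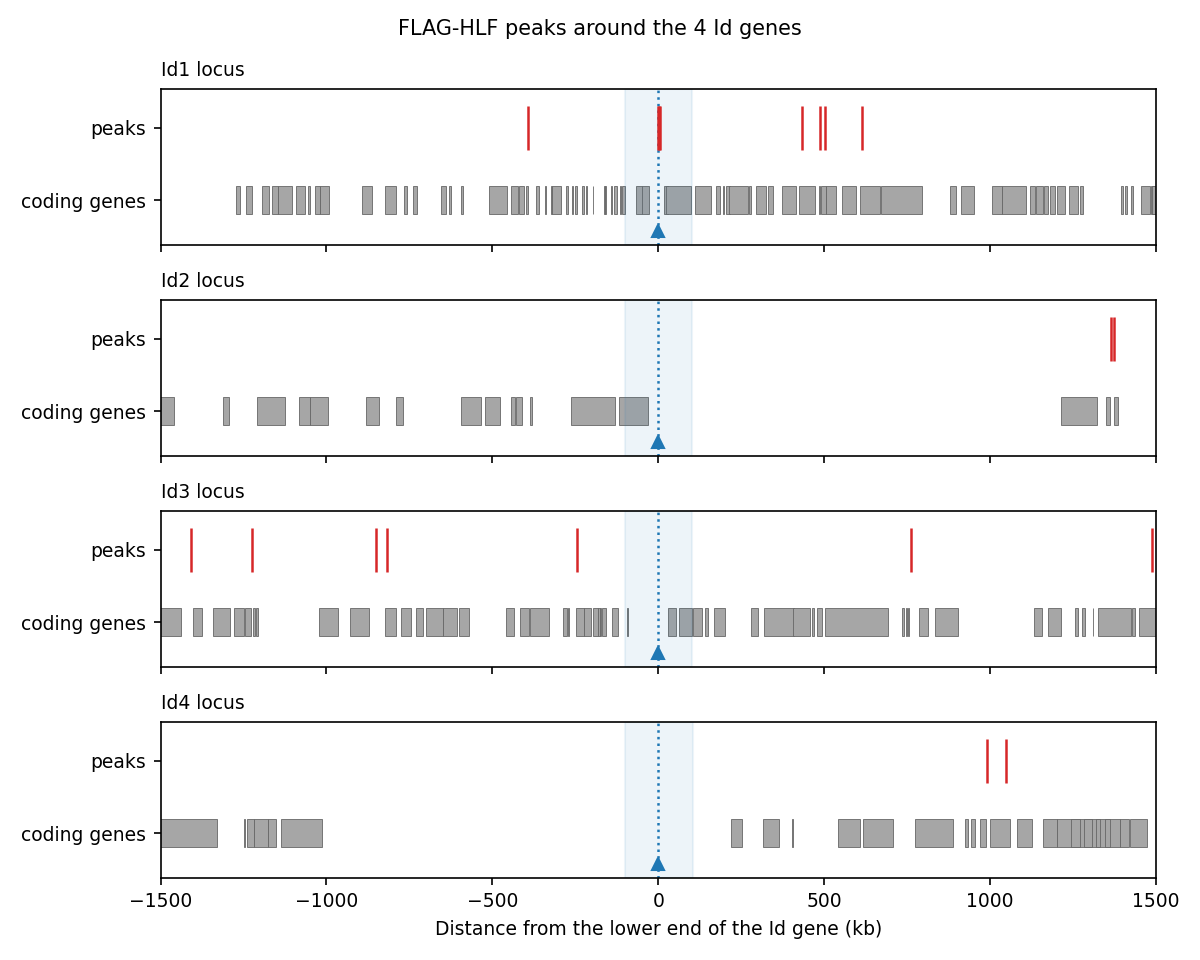
Peaks of the FLAG-HLF list (red lines) and other coding genes (grey bars) by distance from the lower end of each Id gene in kb, with the gene's place marked by a triangle and a dotted line and the 100 kb window shaded. The shaded window holds 3 peaks at Id1, drawn almost on top of one another, and none at Id2, Id3 or Id4.

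The order of the members by nearest peak was Id1 (0.009 kb from an end), Id3 (245.3 kb), Id4 (986.3 kb) and Id2 (1364 kb). With 1 list there is no spread against which neighbouring places in this order could be compared. The number of coding genes within 1 Mb was 50 at Id1, 37 at Id3, 10 at Id4 and 10 at Id2, against a median of 29 over all coding genes, and the number of peaks within 1 Mb was 8, 4, 1 and 0 in the same order, against a median of 3. Only 13.6% of coding genes had as few coding neighbours as Id2 and Id4. Both counts were higher at Id1 and Id3 than at Id2 and Id4, and the part of gene density in the peak counts was not tested.

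Read against the whole list, 1 of 4 Id genes (Id1) with a peak is not a result about the family. Of all 21900 coding genes, 7947 (36.3%) had at least 1 peak inside or within 100 kb, and 2062 (9.42%) inside or within 5 kb. Having 3 or more was rarer, at 817 genes (3.73%) within 100 kb and 55 genes (0.251%) within 5 kb. Since the grouping of the Id1 peaks was among the reasons for looking at the family, nothing is read from that last share. The mean over all coding genes was 0.539 peaks within 100 kb.

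**Figure D3:**
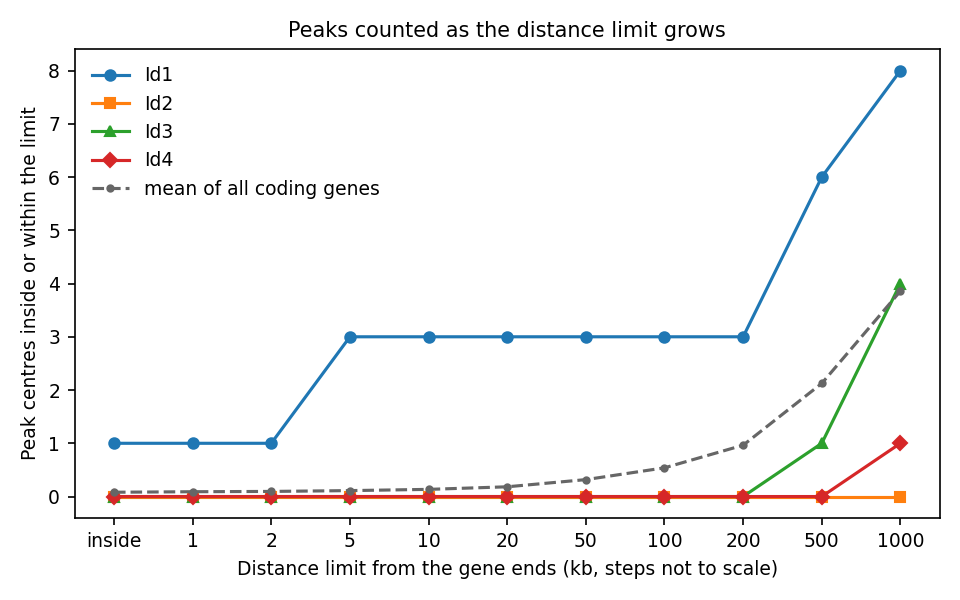
Number of peak centres inside each Id gene or within a growing distance of its ends (horizontal axis in kb, steps not to scale), with the mean of all 21900 coding genes as a dashed line. Id1 reaches 3 peaks by 5 kb and stays there to 200 kb, while Id2 is at 0 up to 1000 kb and Id3 and Id4 stay at 0 up to 200 and 500 kb.

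The genes most like Id1 were sought as coding genes of at most 10 kb with 3 or more peak centres inside or within 5 kb of an end. Of 7939 genes of that length, 3 met this measure (0.0378%), and 15 had 2 such peaks and 291 had 1. The measure was built around Id1, whose peaks were known, so nothing is read from this share. The 55 genes of any length with 3 or more were mostly long, with a median of 170 kb against 17.1 kb for all coding genes, so that in most of them the peaks lay within a large gene body. Apart from Id1 the short genes were Trib1 and Irf2bp2.

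Trib1 (chromosome 15, 59648654 to 59657099), the gene of a pseudokinase by which C/EBP alpha is targeted for breakdown, had 4 peaks within 5 kb, across 4.471 kb. As at Id1, 1 of them spanned the lower end, centred 0.107 kb before it, but the other 3 lay inside the gene at 1.97, 3.732 and 4.364 kb from that end. Irf2bp2 (chromosome 8, 126588296 to 126593986), a transcriptional corepressor gene, had 3 peaks within 5 kb, across 12.8 kb. All lay outside, at 2.395 kb below and at 2.457 and 4.695 kb above the gene. Within 100 kb Trib1 had 6 peaks and Irf2bp2 had 4, while Id1 had 3. The Id1 peaks spanned 5.544 kb. Runs of 3 neighbouring peaks as tight as this occurred 5 times in the list and held 13 peaks (0.412%), with 2 overlapping runs at Trib1 and 1 each at Id1, inside Uck2, a uridine-cytidine kinase gene, and 26.1 kb from Ly6e. That span was set by Id1, so the count is a description.

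**Figure D4:**
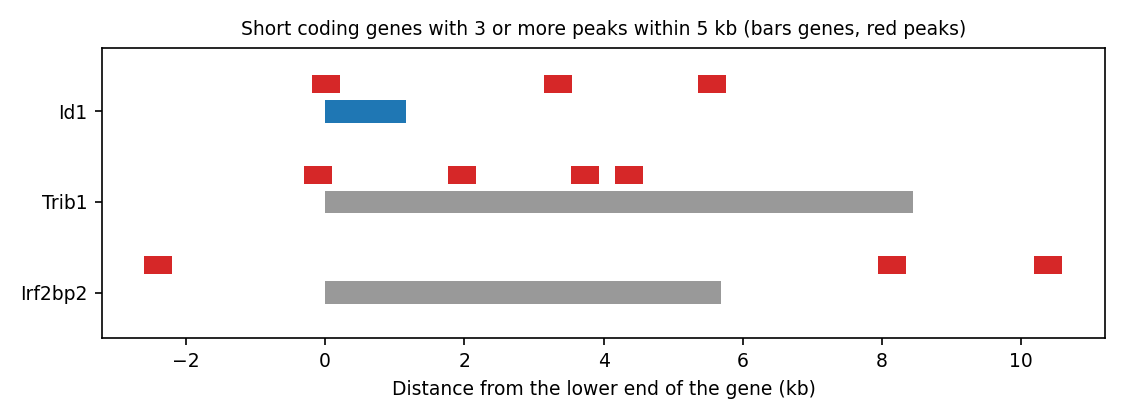
Gene bodies (bars, Id1 in blue) and peaks (red, 400 bases wide) of the 3 coding genes of at most 10 kb with 3 or more peaks within 5 kb, by distance from the lower end of each gene in kb. Id1 and Trib1 each have a peak across the lower end, Trib1 has 3 more inside, and Irf2bp2 has none inside.

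The partners, regulators and targets of Id proteins were described next, as a list of 57 genes. Of these, 29 (50.9%) had a peak inside or within 100 kb, against 36.3% of all coding genes, and 9 (15.8%) within 5 kb, against 9.42%. Their median length of 16.7 kb was close to the 17.1 kb of all coding genes. The 7 list genes with a peak inside were all longer, from 45.9 kb (Notch1) to 267.6 kb (Tcf12). The part of gene length in these counts was not tested. The 29 genes had 41 peaks, but only 9 of these lay inside the list gene. Of those outside it, 15 lay inside some other coding gene, and 8 had the list gene as the nearest coding gene end, 1 of these 8 (at Lyl1) being among the 15. The list shares genes with those examined earlier in these data and was not tested. Its roles held 3 to 14 genes each, so the shares given by role are descriptions only.

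Among the E proteins, the direct targets of Id inhibition, Tcf12 had 1 peak inside the gene, 30.6 kb from its lower end (chromosome 9, 71874660 to 71875059). Tcf3, whose products E12 and E47 drive B cell development, had 1 at 76.6 kb, but this one lay inside Onecut3. Tcf4 had 0, with the nearest at 379 kb.

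Of 8 other HLH genes, 5 had a peak within 100 kb (62.5%, against 36.3% of all coding genes). Bhlhe40, a repressor that binds E boxes and acts in the circadian clock, had 1 centred 1.147 kb below the gene (chromosome 6, 108659283 to 108659682) and another at 86.6 kb. That farther peak was nearer to Arl8b, at 29.6 kb. Lyl1, a partner of E proteins in stem cells, had 1 at 21.3 kb, inside the neighbouring Nfix. Tal2, related to Tal1, had 1 at 42.1 kb inside Tmem38b. Ascl2 and Bhlha15 had 1 each. That of Ascl2, at 54.4 kb, was nearer to Tspan32, and that of Bhlha15, at 80.9 kb, lay inside Lmtk2. Tal1, a master regulator of blood formation that pairs with E proteins, Msc and Bhlhe41 had 0 within 100 kb, and the nearest to Tal1 was 657 kb away.

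Of 6 genes of the HES and HEY family of bHLH factors, several of which are targets of Notch, 3 had a peak. These were Hes5, Hes6 and Hey1 (50%, against 36.3% of all coding genes within 100 kb). None had a peak within 5 kb, against 9.42% of all coding genes. Both peaks counted for Hes6, at 23.7 and 45.4 kb, had Per2 as the gene with the nearest coding end. The farther one was 0.093 kb from an end of Per2. The 1 counted for Hes5 at 82.7 kb lay inside Mmel1, and the 1 counted for Hey1 at 95.4 kb was nearer to Mrps28, at 39.7 kb.

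Of 7 partners in complexes with Tal1 and E proteins, 2 had a peak within 100 kb (28.6%, against 36.3% of all coding genes). Lmo2, the bridging protein of such complexes, had 3 below the gene, at 10.8, 11.97 and 51.0 kb, and had the nearest coding gene end to each. Lmo4, a related LIM-only protein, had 2, at 26.9 kb above and 77.6 kb below, and also had the nearest coding gene end to both. Ldb1, Lmo1, Cbfa2t2, Cbfa2t3 and Runx1t1 had 0.

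Of 5 genes for turnover and binding of Id proteins, 3 had a peak within 100 kb (60%, against 36.3% of all coding genes). Huwe1, a ubiquitin ligase gene on X, had 1 inside, 14.05 kb from an end. Fzr1, an activator of the anaphase-promoting complex, had 1 at 35.7 kb, which lay inside Nfic. Rb1, the retinoblastoma gene, whose protein binds ID2, had 1 at 70.2 kb, which was nearer to Rcbtb2, at 16.1 kb. Usp1, which encodes a deubiquitinase of Id proteins, and Cdc20 had 0.

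The BMP and SMAD genes, inputs to Id1 transcription, had a peak at 8 of 14 genes, 2 of them within 5 kb. The shares were 57.1% within 100 kb, against 36.3% of all coding genes, and 14.3% within 5 kb, against 9.42%. Smad7, an inhibitory SMAD gene, had 1 centred 3.935 kb below the gene and another at 93.6 kb, inside Ctif. Acvr1, a type I receptor gene, had 1 inside, 38.7 kb from an end. Acvrl1, another type I receptor gene, had 4, at 15.0 kb below and 32.1, 50.3 and 98.8 kb above, but none had Acvrl1 as the nearest coding gene end, and the middle pair lay inside Acvr1b. Peaks of Bmp6 at 28.5 kb, Bmpr1b at 25.5 kb and Smad9 at 73.7 kb were likewise nearer to an end of another coding gene, for Bmp6 at 0.038 kb from Txndc5. The peaks counted for the remaining genes of the 8 lay inside other coding genes. Only Smad7 and Acvr1 had the nearest coding gene end to a peak counted for them. Smad1, a BMP-responsive SMAD gene, had none within 2070 kb, and Smad4 and Smad6 had none within 100 kb.

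Targets of E proteins in lymphoid cells had a peak within 100 kb at 6 of 14 genes (42.9%, against 36.3% of all coding genes), and 4 of the 14 had peaks inside the gene, against 6.82% of all coding genes. These shares were not tested. The 4 genes with peaks inside were long, at 81.8 kb (Foxo1), 185.9 kb (Pax5), 69.7 kb (Flt3) and 45.9 kb (Notch1). The median of all coding genes was 17.1 kb. Ebf1, at 390 kb, was longer still and had no peak inside, and the part of gene length in these counts was not tested. Foxo1, a factor of early B cells, had 2 inside, and so did Flt3, which encodes a cytokine receptor of early progenitors. Pax5, the B cell commitment factor, had 1 inside. Notch1, a receptor needed for T cells, had 1 inside and another at 97.7 kb, inside Card9. Cdkn1a, a cell cycle inhibitor gene induced by E proteins, had 1 at 82.8 kb, which was 0.178 kb from Stk38. Rag1, a recombinase gene, had 1 at 83.5 kb, which lay inside Prr5l. Ebf1, Gfi1, Il7r, Rag2, Cd79a, Ptcra, Igll1 and Vpreb1 had 0. The nearest to Rag2, just outside the limit at 100.5 kb, was the same peak inside Prr5l.

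**Figure D5:**
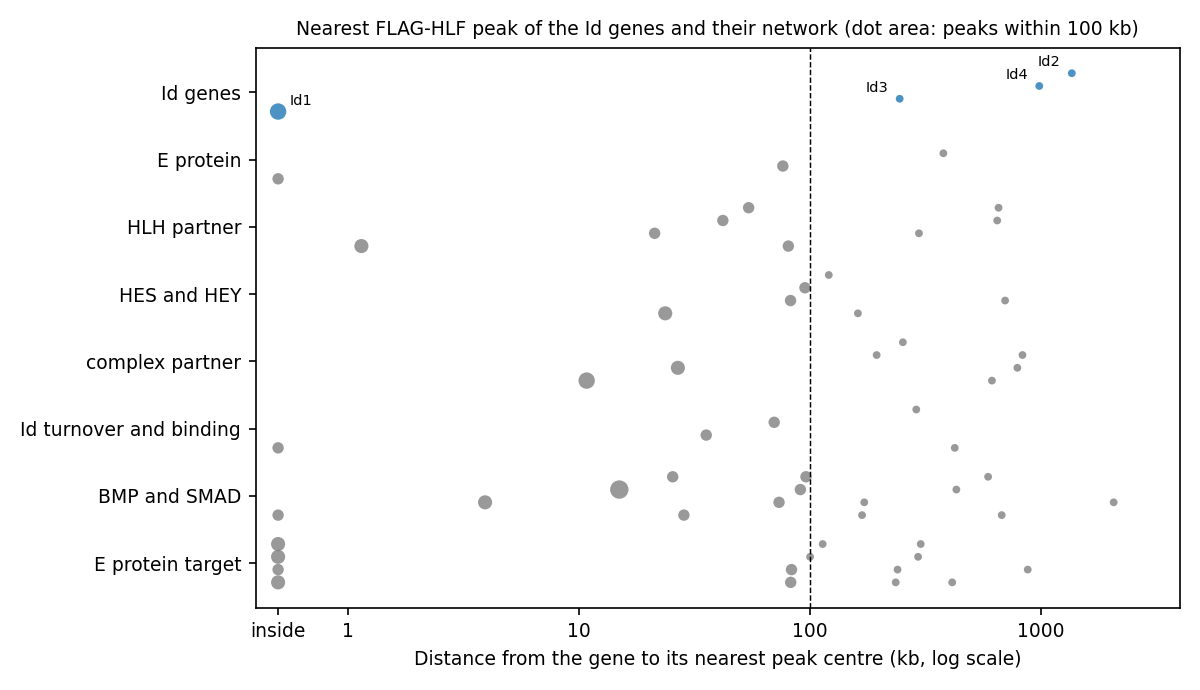
Distance in kb (log scale, genes with a peak inside placed at the left) from each gene to its nearest FLAG-HLF peak, for the Id genes in blue and the 57 list genes in grey by role, with dot area growing with the number of peaks within 100 kb. The dashed line is the 100 kb limit: 1 of 4 Id genes and 29 of 57 list genes lie to its left.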

How the data were processed

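Anti-FLAG chromatin immunoprecipitation was sequenced from 1 FLAG-HLF and 1 GFP control library. Per the labels' protocols, chromatin was crosslinked with 1% formaldehyde and sonicated in 4 cycles. Bowtie2, bedtools and MACS2 are listed per the submitters' processing notes, with mm10 (GRCm38) as the build and no role for each tool. Peak threshold, background library and the step that set the width were not given in the sources used here. In the deposited file the authors gave 3153 intervals of 400 bases without counts, signal or score, so no interval or detection limit could be computed. These interval positions were the only values used.

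Gene bounds were taken from RefSeq (GRCm38.p6, 49997 genes, 21900 coding), matched by symbol for all 4 Id genes and all 57 list genes. A centre inside a gene has distance 0; otherwise the distance runs to the nearest end. A peak counted for every gene within 100 kb. The counting was tested on simulated data. For the 13 motifs, promoter windows came from the RefSeq table. Named genes were the Id genes, coding genes beside them or their peaks, the genes most like Id1, and up to 25 list genes ranked by peaks and then distance. Hey1 and Rag1 are outside this rule and complete counts of 3 and 6. Rsad2, C1qa, Susd3, Trib3, Tm9sf4, Adam17, Cnr2, Cap2, Uck2, Ly6e, Gm14162 and genes nearest to list peaks or holding them were chosen after their values were seen. So were list genes with 0 peaks. The members, the lists and the measures were chosen with earlier results of these data known. No test was run. Alternatives changed the distance limit, the reference point and the assignment. Python 3.11.15 was used with pandas 2.3.3, numpy 2.4.6 and matplotlib 3.10.9.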

Additional observations from a re-analysis of the deposited data

How the results depend on the processing

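Of 40 alternative values for 12 results, 32 stayed within 1.5 times the reported count or did not move. Id1 had 3 peaks at limits of 50 and 200 kb, by the nearest peak edge, and when each peak went only to the nearest coding gene end; when pseudogenes and noncoding genes competed too, an alternative added after the data were seen, it had 2. Id2, Id3 and Id4 had 0 under each of these. That was fixed in advance, because no peak lay within 245 kb of any of them, and these values are among the 32. The counts of Id1 at 20, 50 and 200 kb and by the nearest peak edge were fixed as well. Its farthest centre lay at 4.394 kb and the next peak 392.7 kb away. The number of Id genes with a peak was 1 in each alternative and followed from the same positions. All these values are also among the 32 and say nothing about robustness. Within 2 kb Id1 had 1 peak. From the nearest peak edge the distances were 1364.0 kb for Id2, 245.1 kb for Id3 and 986.1 kb for Id4. Coding genes with a peak numbered 2365 (10.8%) when each peak went to 1 gene, and with all annotated genes 14462 (28.9%) had one. The list of 57 genes had 18 with a peak at 50 kb (31.6%, against 24.2% of coding genes) and 12 when each peak went to 1 gene (21.1% against 10.8%). No paired analysis was possible because there is 1 list and no test. Unknown depth limits every count of 0.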

Other observations

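The Id1 peaks stood at lines 610, 461 and 110 of the 3153 in the file, from the lowest to the highest coordinate, so that the peak farthest from the gene came first. The sources used here do not explain the order of the lines, and it was not used to rank peaks.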
